A study of Mus musculus with 9 samples.

Results

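The comparison of lungs from mice on a high-fat diet (HFD) with lungs from mice on a normal diet (control) covers 6 of the 9 arrays of the series, 3 per diet, chosen by the diet and instillation given in the sample labels. All 6 mice were male C57BL/6J, labelled as 20 weeks old at collection, and had received sterile saline and no LPS. They entered the study at 6 weeks of age and were fed for 12 weeks with normal chow or with a diet in which 60% of calories came from fat. The labels give a body weight of 31 ± 0.5 g for control and 45 ± 0.5 g for HFD mice, and collection followed 24 h after the instillation step. RNA came from the upper and middle lobes of the right lung, with 1 array per mouse and no pooling stated. It was depleted of rRNA, labelled by random priming along the whole transcript and hybridised to 1-colour Agilent arrays that cover mRNAs as well as long non-coding RNAs. The remaining 3 arrays, from HFD mice given LPS (HFD + LPS), served to estimate how much mice of a group vary and belong to neither group.

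Genes are named through 50 of the 60691 probes, those that carry a transcript accession and are spotted 10 times per array. Of these accession probes, 46 matched a gene symbol. The other probes carry manufacturer's identifiers and are described by the form of their names and by their brightness. The defining markers of lung epithelium, endothelium, alveolar macrophages, lymphocytes, neutrophils, red blood cells, muscle and adipocytes had no accession probe, so the lung label was not checked against markers, and the share of each cell type in these lobes is unknown here.

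Feeding a fat-rich diet makes mice obese, and the lung then receives more circulating fatty acids. Cells burn fatty acids in mitochondria: the carnitine palmitoyltransferase Cpt1a, in the outer membrane, commits a long-chain fatty acid to import, and thiolases such as Acaa2 carry out the last step of each turn of beta-oxidation. The nuclear receptor PPARα, encoded by Ppara, binds fatty acids and switches on genes of this pathway and of peroxisomes. Alveolar type II cells use fatty acids for surfactant, and alveolar macrophages clear and store surfactant lipid. In whole lobes, a change in the number of cells of a type and a change in RNA per cell cannot be told apart.

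Brightness varied between arrays. The 75th percentile of log2 intensity before scaling was 5.61, 5.67 and 5.75 in control and 5.46, 6.22 and 5.89 in HFD samples. The HFD arrays were thus more spread out, with a mean of 5.86 ± 0.38 against 5.68 ± 0.071 (SD, n = 3 each), and the groups overlapped (two-sided exact permutation test, p = 0.6, where 3 against 3 allow no p below 0.1). Between 40.6% and 55.6% of probes were well above background on the 6 arrays, the lowest share on control replicate 1, and no spot was saturated. The file headers give 1 scan date for all 6 arrays, which were therefore taken to lie on 1 slide. The control arrays and HFD replicate 1 were in its row 1, and HFD replicates 2 and 3 in row 2, so that diet and row are partly aligned. The number of arrays limits the precision.

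All signals below are log2 intensities relative to the 75th percentile of their own array, and fold changes are HFD minus control on that scale. A probe was tested if it cleared background on 3 or more of the 6 arrays, which held for 29978 probes and 41 of the 50 accession probes, 39 of them with a symbol. With limma and Benjamini-Hochberg adjustment, 0 of the 29978 probes passed an adjusted p of 0.05 (0% of those tested), and 1353 (4.51%) had an unadjusted p under 0.05. The count after adjustment was also 0 with the methods' t-test and in a fit to the 6 arrays only. The unadjusted counts were then 1783 and 1976. Of the 41 accession probes, 0 passed and 6 (14.6%) had an unadjusted p under 0.05. Cpt1a had the lowest adjusted p among them, 0.864 in limma, and the other 40 had an adjusted p of 1.00. Higher and lower below therefore describe the measured values of these arrays.

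All 3 HFD arrays lay on the same side of all 3 control arrays for 13 of the 41 accession probes (31.7%), compared to 11.8% of all probes tested. HFD was higher for 9 of them (22.0%, against 6.87% of all probes) and lower for 4 (9.76%, against 4.92%). The 9 include 5 dim probes, described below, with more HFD than control arrays above background. Over the 32 accession probes well above background on all 6 arrays, 4 were higher and 4 lower (25% separated, against 11.7% of all probes). With 1 spot per probe, between 18.2% and 27.8% of the 31 to 37 accession probes with a value on all 6 arrays were separated, with a median of 22.4% and of 7.5 probes over the 10 spots. The share depended on the scaling, with 10 accession probes (24.4%, against 11.8% of all probes) separated after quantile normalisation and 8 (19.5%, against 9.99%) after normexp background correction. Normexp was run with an offset of 50 added before the log, which by construction draws fold changes toward 0, most for dim probes. The SD of the fold changes over all probes tested was 0.21 with normexp and 0.39 in the main fit. Without scaling between arrays it was 4 (9.76%), close to the 8.13% of all probes, and these were 4 higher and 0 lower. With single arrays left out the split ran from 16 higher and 4 lower (without control replicate 2, where 22.6% of all probes were separated) to 10 higher and 8 lower (without control replicate 3, where 22.5% were). The median fold change of the 41 probes was 0.052, compared to 0.022 over all probes tested. It ranged from 0.028 (without control replicate 3) to 0.13 (without HFD replicate 2) with single arrays left out, and was 0.0095 over the probes above background on all 6 arrays and 0.17 with the row as a term. Of these 41, 19 lay within 0.2 of 0, and Cpt1a was the 1 probe beyond 1.

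**Figure D1:**
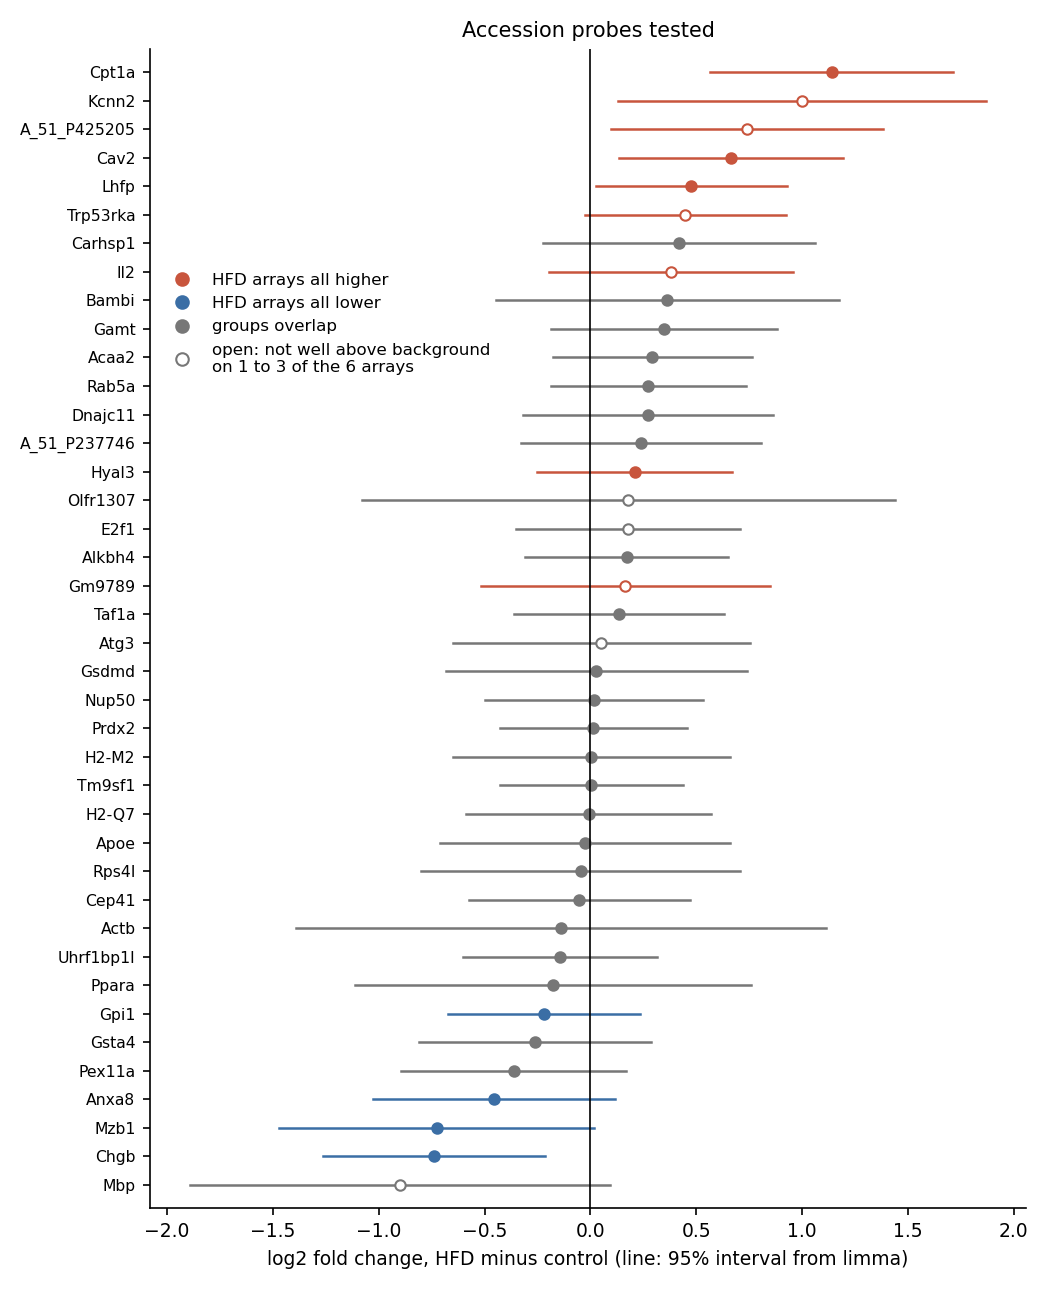
Log2 fold change, HFD minus control, for 40 of the 41 accession probes tested (x axis, log2 units; lines are 95% intervals from limma, not adjusted for the number of probes). Red and blue mark probes whose HFD arrays all lay above or below the control arrays, and open points mark probes not well above background on 1 to 3 arrays; Cpt1a at 1.14 is the highest and Mbp at -0.90 the lowest.

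Cpt1a, the entry step of fatty acid oxidation, had the highest fold change among the accession probes. It had signals of 2.23, 2.73 and 2.63 in control and 3.51, 3.85 and 3.66 in HFD lungs. The groups were separated by a gap of 0.78, wider than the range of either group. The fold change was 1.14 (SE 0.26, adjusted p = 0.864 in limma), or 2.20-fold with a 95% interval from 1.48 to 3.28. The exact permutation test over the 6 arrays gave the smallest p it allows, 0.1. Every probe with separated groups has this p, so that the test adds nothing to the separation. Over all probes tested, 219 had a higher fold change and 40 a lower unadjusted p. Each of the 10 spots of this probe, taken alone, was higher on all HFD arrays than on all control arrays, and the spots of 1 array differed by an SD between 0.068 and 0.12. Compared within row 1, HFD replicate 1 was 0.98 above the control mean, and with the row as a term the fold change was 0.84. The HFD + LPS arrays had Cpt1a signals between 3.29 and 4.08.

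From the list of fatty acid oxidation genes and PPAR targets, 3 of 36 genes had an accession probe, and 0 of 3 passed the adjusted threshold in either direction. Acaa2, the mitochondrial thiolase, had signals of 5.65, 6.10 and 5.87 in control and 6.10, 6.05 and 6.34 in HFD lungs. The groups overlapped at control replicate 2, which lay between the HFD arrays, and the fold change was 0.29 (SE 0.21, adjusted p = 1.00 in limma), or 0.18 without control replicate 1 or with the row as a term. Ppara, the receptor gene, had signals of -0.88, -0.048 and -0.66 in control and -1.24, -0.68 and -0.19 in HFD lungs. The groups overlapped, with a fold change of -0.18 (SE 0.42, adjusted p = 1.00 in limma) whose 95% interval ran from -1.11 to 0.76. It was -0.47 with the row as a term and -0.71 within row 1. The median fold change of these 3 genes was 0.29, a value that depends on which genes the list holds.

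Pex11a, a PPARα target whose product makes peroxisomes divide, was not on that list and went the other way from Cpt1a. It had signals of 3.16, 3.39 and 3.48 in control and 2.69, 2.86 and 3.41 in HFD lungs, and HFD replicate 3 lay inside the control range. The fold change was -0.36 with a 95% interval from -0.89 to 0.17. The promoters of Cpt1a and Pex11a are shown because both genes are known PPARα targets and their probes differed in direction. The windows cover 250 bases before and 50 after the start used in a RefSeq promoter table (GRCm38.p6), which for Cpt1a lies inside the gene as annotated, downstream of its outermost start. They lie at chr19:3323051-3323350 on the plus strand for Cpt1a and chr7:79743082-79743381 on the minus strand for Pex11a, with any half-site for nuclear receptors (AGGTCA, or TGACCT on the other strand) in capitals.
Cpt1a: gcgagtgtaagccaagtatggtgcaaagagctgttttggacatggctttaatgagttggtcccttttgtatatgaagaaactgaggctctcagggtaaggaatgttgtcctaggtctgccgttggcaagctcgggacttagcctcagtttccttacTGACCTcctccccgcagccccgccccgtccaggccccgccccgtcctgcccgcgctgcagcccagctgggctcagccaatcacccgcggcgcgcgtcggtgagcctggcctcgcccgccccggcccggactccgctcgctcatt
Pex11a: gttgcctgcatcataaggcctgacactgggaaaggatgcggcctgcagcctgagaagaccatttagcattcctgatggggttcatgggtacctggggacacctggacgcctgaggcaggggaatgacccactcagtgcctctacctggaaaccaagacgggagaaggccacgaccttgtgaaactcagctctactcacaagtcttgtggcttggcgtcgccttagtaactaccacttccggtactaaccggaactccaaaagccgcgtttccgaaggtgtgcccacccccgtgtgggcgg
The Cpt1a window holds 1 half-site, 94 bases before that start, and the Pex11a window holds 0. These letters occur in 16.3% of the 32851 promoter windows of this length, on either strand, and in 5 of the 33 windows found for the 46 named genes. A match is a description of the letters and no evidence of binding.

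**Figure D2:**
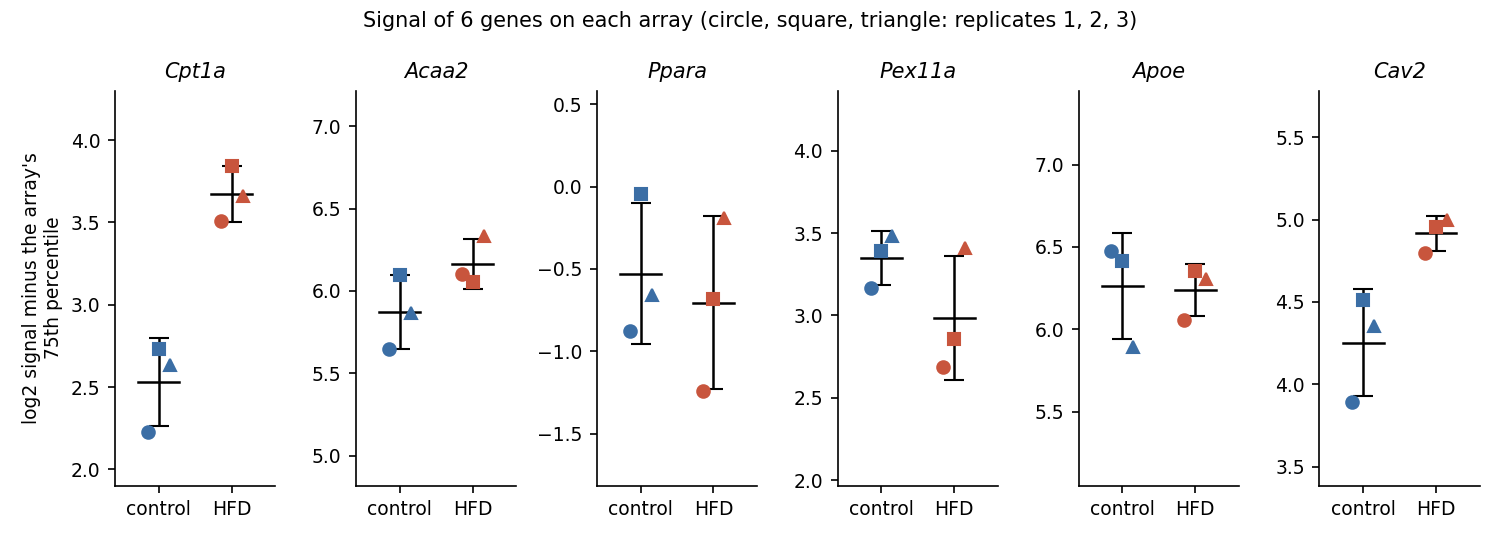
Signal of 6 genes on each control (blue) and HFD (red) array, in log2 units relative to the array's 75th percentile; every panel spans the same number of log2 units, and black bars are mean ± SD (n = 3). The groups are separated for Cpt1a and Cav2 and overlap for Acaa2, Ppara, Pex11a and Apoe.

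Lipid transport was represented by 1 of 45 listed genes, Apoe, the apolipoprotein that macrophages and other cells secrete to carry lipid. Its signals were 6.48, 6.42 and 5.89 in control and 6.06, 6.35 and 6.31 in HFD lungs. All 3 HFD values fell inside the control range. This gave a fold change of -0.025 (SE 0.31, adjusted p = 1.00 in limma), with a 95% interval from -0.71 to 0.66, and its sign changed with the scaling (0.037 after quantile normalisation), while with the row as a term it was -0.45.

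Cav2 encodes caveolin-2, a coat protein of caveolae, the membrane pits abundant in lung endothelium and type I alveolar cells. It was the 1 of 18 caveolar and endothelial genes with an accession probe. Its signals were 3.89, 4.51 and 4.35 in control and 4.80, 4.95 and 4.997 in HFD lungs, separated by 0.29. This was a fold change of 0.66 (SE 0.24, adjusted p = 1.00 in limma), or 1.58-fold with a 95% interval from 1.097 to 2.29. Lhfp, a tetraspan membrane protein gene, had signals of 3.54, 3.97 and 3.75 in control and 4.19, 4.40 and 4.11 in HFD lungs, with a fold change of 0.48 (SE 0.20). Both genes were well above background on all 6 arrays, and control replicate 1, the array with the lowest share of probes above background, had the lowest signal for both. Without this array the fold change of Cav2 was 0.48. Hyal3, a member of the hyaluronidase family, was separated by 0.015, from -1.25, -1.28 and -1.34 to -1.23, -1.02 and -0.99, with a fold change of 0.21 (SE 0.21) that was 0.050 with normexp correction, 0.058 within row 1 and 0.034 with the row as a term.

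Another 5 probes with higher HFD signals were close to background on part of the arrays. Kcnn2, a calcium-activated potassium channel gene, had signals of -3.09, -1.88 and -2.23 in control and -1.73, -1.23 and -1.22 in HFD lungs. It was well above background on 1 control and 3 HFD arrays, with a fold change of 1.00 (SE 0.39, adjusted p = 1.00 in limma) that was 0.17 with normexp correction, 0.57 with the row as a term and 0.65 without control replicate 1. Il2, the T cell growth factor gene, was also above background on 1 control and 3 HFD arrays, with signals of -2.09, -2.42 and -2.26 against -1.74, -1.90 and -2.001. Its fold change was 0.38 (SE 0.26), and it was 0.0054 with normexp correction and 0.72 with the row as a term. Trp53rka, a p53-regulating kinase gene, had signals of -2.26, -2.01 and -1.97 in control and -1.82, -1.52 and -1.57 in HFD lungs, a fold change of 0.45 (SE 0.21) that was 0.021 with normexp correction and 0.27 within row 1. For Gm9789, a predicted gene, the values were -2.01, -2.13 and -2.03 against -1.94, -1.88 and -1.86, a fold change of 0.16 (SE 0.31). It turned to -0.064 with normexp correction, and was 0.0060 with the brightness covariate and 0.53 with the row as a term. The probe A_51_P425205, whose accession matched no symbol, had -1.94, -2.12 and -1.65 against -1.40, -1.03 and -1.06, a fold change of 0.74 (SE 0.29) that was 0.14 with normexp correction. In this dim range small background differences weigh on the log scale, and all 5 had more HFD than control arrays above background. The normexp offset shrinks fold changes most for such probes, so their lower values with normexp are in part built into that setting.

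**Figure D3:**
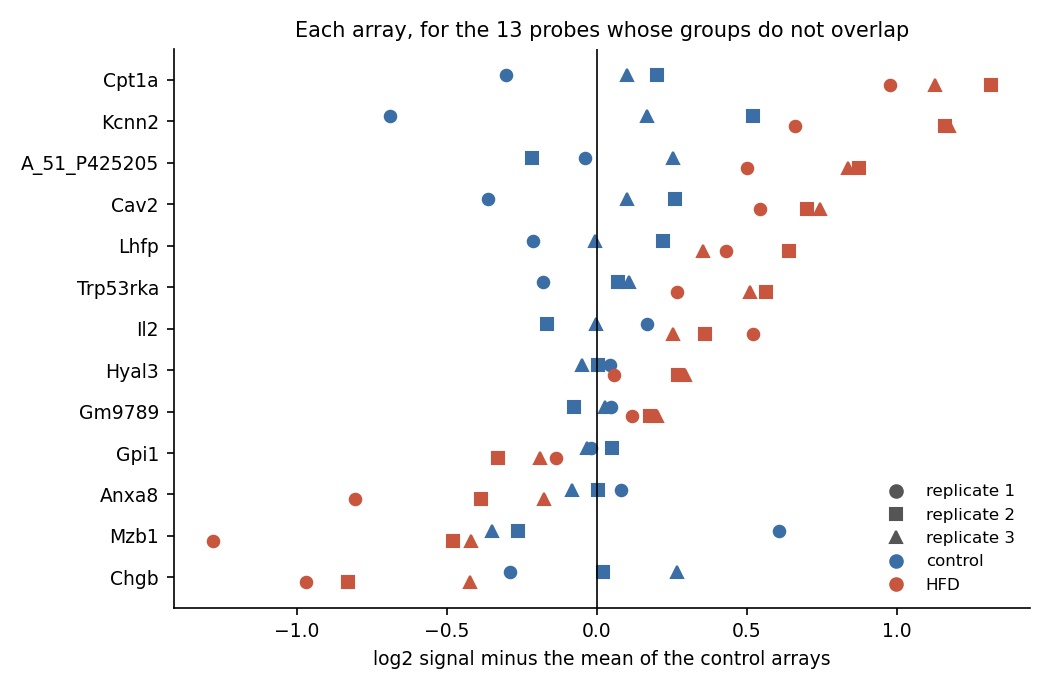
Signal of each control (blue) and HFD (red) array minus the control mean (x axis, log2 units) for the 13 accession probes whose groups did not overlap; symbols mark the replicate. The gap between the groups is 0.78 for Cpt1a and 0.015 for Hyal3, and HFD replicate 1 lies farthest from the control mean for Chgb, Mzb1, Anxa8 and Il2.

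A secretory and a plasma cell gene had the lowest fold changes among separated probes. Chgb, encoding chromogranin B of the dense-core granules of neuroendocrine cells, had signals of 0.045, 0.35 and 0.60 in control and -0.64, -0.50 and -0.090 in HFD lungs. Its fold change was -0.74 (SE 0.24, adjusted p = 1.00 in limma), with a 95% interval from -1.26 to -0.22, and -0.35 with normexp correction. Mzb1, an endoplasmic reticulum chaperone gene of B cells and plasma cells that helps assemble antibodies, had signals of 3.48, 2.61 and 2.52 in control and 1.59, 2.39 and 2.45 in HFD lungs. The replicates 2 and 3 of the groups were close together and the separation was 0.071, while control replicate 1 and HFD replicate 1 were the extremes. The fold change of -0.73 (SE 0.33, adjusted p = 1.00 in limma) was -0.42 without control replicate 1 and -0.45 without HFD replicate 1, and -1.28 within row 1. B cell markers other than this gene had no accession probe.

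Anxa8, a calcium-dependent phospholipid-binding annexin gene and the 1 of 15 listed annexins and calcium-binding genes measured, had signals of 4.62, 4.55 and 4.46 in control and 3.74, 4.16 and 4.37 in HFD lungs. The control arrays lay within an SD of 0.082, and the HFD arrays were spread by 0.32. Its fold change was -0.46 (SE 0.26, adjusted p = 1.00 in limma), and was -0.28 without HFD replicate 1 or without scaling between arrays and -0.81 within row 1. Gpi1, the glycolytic enzyme glucose-6-phosphate isomerase, had signals of 6.79, 6.86 and 6.77 in control and 6.67, 6.48 and 6.62 in HFD lungs. This was a tight separation of 0.10 with a fold change of -0.22 (SE 0.20), or 1.16-fold lower in HFD. It was -0.14 after quantile normalisation or with the brightness covariate, -0.13 within row 1, -0.090 with normexp correction and -0.040 without scaling between arrays.

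The remaining 28 accession probes tested had overlapping groups, with fold changes from -0.90 for Mbp to 0.42 for Carhsp1. Mbp, the myelin basic protein gene, had signals of -1.36, -0.51 and -1.96 in control and -3.12, -1.80 and -1.62 in HFD lungs, and HFD replicate 1, where it was not well above background, carried most of the difference. Carhsp1, whose product binds and stabilises Tnf mRNA, had 3.28, 4.14 and 3.61 in control and 3.81, 4.41 and 4.06 in HFD lungs, and was the 1 of 41 macrophage and inflammation genes measured. Bambi, a pseudoreceptor that blocks TGF-β signalling and the 1 of 31 genes of that list, had a fold change of 0.36 (SE 0.36). The 24 interferon and antigen presentation genes and the 15 clock genes listed had no accession probe.

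Another 7 genes with overlapping groups act in redox defence, cell death, antigen presentation and vesicle traffic. Prdx2, a peroxiredoxin that removes hydrogen peroxide, had a fold change of 0.014, and Gsta4, a glutathione transferase that clears lipid peroxidation products, had -0.26 (SE 0.25). Gsdmd, which forms the membrane pores of pyroptosis, had 0.027 with a 95% interval from -0.68 to 0.74. Among the major histocompatibility genes H2-Q7 had -0.0091 and H2-M2 0.0048, and the H2-Q7 probe may also bind transcripts of its near-identical neighbours. Atg3, an autophagy enzyme, had 0.052, and Rab5a, a GTPase of early endosomes, 0.27. The standard errors of these genes ran from 0.20 for Prdx2 to 0.32 for Gsdmd, and a fold change several times as large, that of Cpt1a, did not pass the adjusted threshold.

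Housekeeping and regulatory genes were also measured. Actb, β-actin, is the 1 of 11 listed m6A enzymes and genes measured in the study with an accession probe, and it had signals of 1.09, 0.10 and 0.82 in control and 1.69, -0.76 and 0.67 in HFD lungs. Its HFD arrays held both the highest and the lowest of the 6 values. The fold change was -0.14 (SE 0.56, adjusted p = 1.00 in limma) and took the opposite sign, 1.01, within row 1. Metabolic and transcription genes with overlapping groups were Gamt (0.35), a creatine synthesis enzyme, Dnajc11 (0.27), a mitochondrial chaperone, E2f1 (0.18), a cell cycle transcription factor and Taf1a (0.14), a subunit of the RNA polymerase I machinery. The fold changes of Alkbh4 (0.17), a demethylase, Olfr1307 (0.18), an olfactory receptor, Nup50 (0.015), a nuclear pore protein, and Tm9sf1 (0.0042), a transmembrane protein, were all within 0.2 of 0. So were those of Cep41 (-0.053), a centrosomal protein, Rps4l (-0.046), annotated as a transcribed pseudogene that may share signal with its parent gene, and Uhrf1bp1l (-0.14). The probe A_51_P237746, without a symbol, had 0.24.

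Another 9 accession probes were not tested. Tyr, Spats1, Olfr166, Gabrg1, Lhx1, Duox1 and 2 probes without a symbol were well above background on 0 of 6 arrays, and Hspb7, a small heat shock protein of muscle, on 1 control and 1 HFD array. Of the 41 tested, 32 were well above background on all 6 arrays and 9 on 3 to 5. Just inside that filter were Kcnn2, Il2, E2f1 and Olfr1307 with 4 arrays and Gm9789 with 3. Kcnn2, Il2 and E2f1 reached the required 3 arrays in HFD alone, with 1 control array above background, so that higher HFD signals favoured their entry into the test.

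The probes without a gene name showed the same absence of adjusted calls. Those whose names begin with ASMM10AP had a median fold change of 0.040 over 13231 tested, and 12.5% had separated groups. Those with LNC or lincRNA in the name had 0.016 over 13331 tested and 10.5%. Both medians turned with the processing, to -0.018 and -0.072 with no filter on dim probes, and that of the LNC or lincRNA probes also to -0.0046 with normexp correction and -0.013 with the percentile over probes above background on all 9 arrays. Probes beginning with ASMM10P had a median of -0.032 over 3210 tested, with HFD lower in 8.57% against higher in 5.73%. Fewer of the lincRNA probes could be tested: 15.4% of the 1092 humanlincRNA probes and 17.8% of the 639 mouselincRNA probes, against 59.2% of the ASMM10AP probes.

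**Figure D4:**
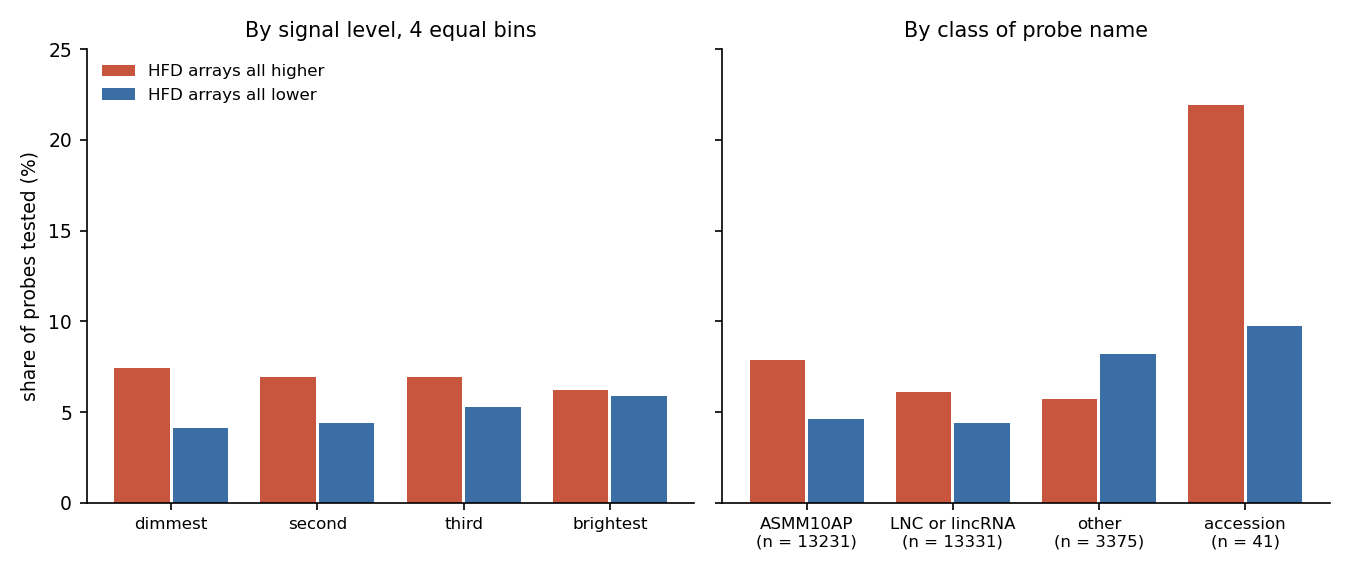
Share of tested probes (y axis, percent) whose HFD arrays were all higher (red) or all lower (blue) than the control arrays, by mean signal over the 6 arrays in 4 bins of equal size (left) and by class of probe name (right). The accession class has 41 probes against 3375 to 13331 in the others, and its values are means of 10 spots.

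By brightness, the median fold change was 0.069 in the dimmest of 4 equal bins of tested probes and 0.027, 0.010 and 0.0060 in the next ones. The SD of the fold changes was 0.48 in the dimmest bin and 0.33 in the brightest. The share of separated probes hardly varied, at 11.5%, 11.3%, 12.2% and 12.1%. Of the accession probes, 20 of the 41 tested fell in the brightest bin, of which 6 were separated, and 10 in the dimmest, of which 5 were separated.

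By fitted value, the 2 largest rises and 2 largest falls among unnamed probes with separated groups were of probes near background in 1 of the diets, so that these fits set no order of size. ASMM10AP1B100064414V4 had signals of 5.63, 1.18 and -0.30 in control lungs and did not clear background on any of the 3 HFD arrays, where its signals were -3.89, -4.51 and -4.84. With each HFD array set no lower than its dimmest spot that cleared background, it was 22.3-fold lower in HFD (adjusted p = 0.864 in limma). Probes brighter than this floor can still fail to clear background, so that folds taken with it are no strict lower bounds. The 22.3-fold value rests on control replicate 1 and was 6.74-fold without it. ASMM10LNC1A100106452V4, also not above background in HFD, was 2.93-fold lower with the same floor (adjusted p = 0.775 in limma), from 0.21, -0.81 and -1.67 in control. On the higher side, ASMM10AP1B100057754V4 had -3.17, -2.80 and -1.56 in control and -1.24, 2.26 and -0.84 in HFD lungs, with a fitted fold change of 2.57 (SE 1.17). It was well above background on 1 of 3 control arrays, so that this value rests on control signals near background, and HFD replicate 2 was far above the other HFD arrays. ASMM10LNC1A100016221V4 was not above background in control and had -1.24, -1.73 and -2.30 in HFD lungs. With such a floor for the control arrays it was 1.21-fold higher in HFD (1.01-fold without HFD replicate 1). No gene is given for these 4 identifiers.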

How the data were processed

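Per the labels, the authors read the arrays with Agilent Feature Extraction 11.0.1.1 and deposited, for every spot, an intensity with the background subtracted and quality flags. The authors also deposited a table of normalised log2 values for 60641 probes, none of them an accession probe, which served as an alternative; it was made with GeneSpring GX, and the method within that program is not given in the sources used here. Control spots, outlier spots and 132 spike-in or design-control probes were dropped. The log2 intensities of a probe's spots were then averaged and expressed relative to the 75th percentile of the array. Group means were fitted over the 9 arrays by limma 3.58.1 (R 4.3.3), which leaves 6 residual degrees of freedom, for probes with a value on every array, with Benjamini-Hochberg adjustment at 0.05. The procedure was tested on simulated data. Accessions were matched to RefSeq (GRCm38.p6); the file headers name build mm9, so gene coordinates are not given.

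The genes and lists were chosen with earlier results of these data known. By the naming rule, every accession gene is named, except that 1 is not reported here; values per array are given for genes with separated groups and for the lists of fatty acid oxidation, lipid and study genes, and the 2 largest rises and falls stand for unnamed probes. Other genes given with values per array were chosen after their values were seen. Alternatives covered normalisation, background correction (normexp, offset 50), filters, arrays left out and a fit to the 6 arrays only. They also covered replicate, row and slide terms, with slides told apart by scan date, a brightness covariate and the methods' t-test. The setting of 1 spot per probe was added after seeing the data. The replicate numbers were not taken as pairs, and the replicate block is given as an alternative. Same-numbered control and HFD arrays deviated from their group means with r of 0.31, -0.0088 and 0.083. These values cannot settle whether the mice were paired, since differently numbered arrays were not compared.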

Additional observations from a re-analysis of the deposited data

How the results depend on the processing

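The count of probes with an adjusted p under 0.05 was 0 under every alternative run, the lowest adjusted p being 0.164, without HFD + LPS replicate 2. At an unadjusted p under 0.05 it was 1353, with 788 (without HFD replicate 2) to 1824 (without HFD replicate 1) when single arrays were left out. For the accession probes the unadjusted count was 6, with 9 in the methods' t-test and 3 without normalisation. It was 2 to 7 with single arrays left out, the 2 being without control replicate 1 or HFD replicate 2. Separated accession probes numbered 13, with 8 under normexp, 8 with the filter at all 6 arrays (25%, against 11.7% of all probes), 4 without normalisation, 7.5 (median) with 1 spot per probe and 14 to 20 with single arrays left out (34.1% to 48.8%, against 18.2% to 29.0% of all probes). With the replicate block, 0 probes passed the adjusted threshold, 1276 the unadjusted one, and 5 accession probes the latter, and the block changed no call at the adjusted threshold.

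The median fold change over all probes, 0.022, was -0.0067 with the percentile over probes above background on all 9 arrays, 0.20 without normalisation, 0.0029 with normexp, -0.062 with no filter, 0.046 with the row term and 0.055 within row 1. These 6 of 24 settings moved by more than 0.019, the SD over HFD arrays of the median difference from the control mean. That yardstick was chosen after the values were seen. It replaced the pooled SD of the array medians, 0.0040, by which 14 of 24 settings moved; the further ones were quantile normalisation (0.012), the authors' values (0.015), the filter at all 6 arrays (0.0076), the brightness covariate (0.028) and 4 of the fits with an array left out, which ranged from 0.0094 to 0.036. The value without normalisation holds the difference in brightness; for the others the cause was not tested.

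Under at least 1 alternative the sign changed for 18 of the 41 accession probes tested, 17 of them with overlapping groups, the largest such fold change being 0.27 in size. Values follow for 4 genes. Gm9789 was -0.064 with normexp, 0.0060 with the brightness covariate and 0.53 with the row term. Ppara was 0.0011 without normalisation, -0.47 with the row term, -0.71 within row 1 and -0.43 to 0.091 with single arrays left out. Apoe was 0.037 with quantile normalisation, 0.15 without any, 0.082 with normexp, 0.066 with the brightness covariate, -0.45 with the row term and -0.21 to 0.083 with arrays left out. Actb was 0.038 without normalisation, 0.28 with the row term, 0.23 with the brightness covariate, 1.01 within row 1 and -0.72 to 0.51 with arrays left out. Cpt1a stayed between 0.84 and 1.32 over 23 alternatives, with adjusted p from 0.498 to 1.00 in limma or the methods' t-test. The accession probes are not in the authors' table, so that alternative gave no value for them.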
